A study of Mus musculus with 6 samples.

Results

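miR-192, miR-194 and miR-215 are microRNAs made from a pair of related gene clusters, and they were followed here in livers of mice treated with carbon tetrachloride (CCl4) and in control livers. Members were taken by name from the array, as every mouse miR-192, miR-194 or miR-215 of either arm of the hairpin, which gave 7 of the 1247 mouse miRNAs on the array. These are mmu-miR-192-5p, mmu-miR-192-3p, mmu-miR-194-5p, mmu-miR-194-1-3p, mmu-miR-194-2-3p, mmu-miR-215-5p and mmu-miR-215-3p. Only miR-192-5p and miR-194-5p were detected on all 6 arrays, miR-192-3p was detected on 5, and the other 4 members were detected on none. The CCl4 group was 3 liver samples of male C57BL/6 mice that received 0.6 mL/kg CCl4, a solvent toxic to hepatocytes, in corn oil by intraperitoneal injection 2 times a week for 10 weeks from 7 weeks of age. The control group was 3 liver samples of male C57BL/6 mice of the same age that were injected with an equal volume of corn oil alone. The series was designed to profile miRNAs in the fibrosis that this treatment induces. RNA came from liver tissue, in which fewer cells of a type and less RNA per cell cannot be told apart.

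A miRNA is cut from a hairpin as a short RNA of either arm, 5p or 3p, and its seed, bases 2 to 8, pairs with target mRNAs and lowers their translation or stability. miR-192 and miR-194 are abundant in liver, gut and kidney epithelium. p53 is known to raise them, and miR-192 represses the transcription factors Zeb1 and Zeb2, which drive loss of epithelial features. miR-122, used below as a reference, is the most characteristic miRNA of hepatocytes.

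The mature sequences are shown because the family falls into groups by seed, and because miR-192-5p and miR-215-5p can be told apart at few bases. They are RefSeq sequences that go with the mouse assembly GRCm38.p6, matched by name for 7 of the 7 members, written 5′ to 3′ with the seed in capitals.
mmu-miR-192-5p: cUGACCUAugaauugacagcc
mmu-miR-215-5p: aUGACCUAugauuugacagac
mmu-miR-194-5p: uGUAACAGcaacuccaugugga
mmu-miR-192-3p: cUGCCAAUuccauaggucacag
mmu-miR-215-3p: uCUGUCAUucuguaggccaau
mmu-miR-194-1-3p: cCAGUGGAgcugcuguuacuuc
mmu-miR-194-2-3p: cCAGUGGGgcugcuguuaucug
The seed of miR-192-5p is also that of miR-215-5p, and no other mature mouse miRNA of the RefSeq table has it. Over their 21 bases these miRNAs differ by 3 substitutions, which are C1A, A12U and C20A with miR-192-5p first and positions counted from the 5′ end, all outside the seed. The seed of miR-194-5p was found in no other mature miRNA of the table. The 3p arms of the miR-194 hairpins differ by 4 substitutions, A8G, C19U, U20C and C22G with miR-194-1-3p first, and the first of these lies in the seed.

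The hairpins lie in a pair of clusters in GRCm38.p6, each with a miR-194 gene beside a miR-192 or miR-215 gene. Mir194-2 (chr19:6264643-6264728, plus strand) and Mir192 (chr19:6264844-6264932, plus strand) are separated by 115 bases and lie within no other gene span of the annotation. Mir194-1 (chr1:185313319-185313385, plus strand) and Mir215 (chr1:185313581-185313692, plus strand) are separated by 195 bases and lie within the span of Iars2, which encodes the mitochondrial isoleucyl-tRNA synthetase. The mature miR-194-5p made from both clusters is the same RNA, so its signal does not say which cluster it came from, whereas miR-192 comes from the chromosome 19 cluster and miR-215 from the chromosome 1 cluster. The array files carry no coordinates for the miRNAs, and those above are of the RefSeq annotation.

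The software that read the arrays gives a total signal for each miRNA, a background-subtracted intensity on a linear scale summed from 40 spots of 2 probes and not normalized between arrays. It flagged 186 to 193 miRNAs as detected in the corn oil group and 227 to 334 in the CCl4 group. CCl4 replicate 3 stood apart from the rest before any normalization. Its Spearman correlation with the other CCl4 arrays was 0.856 and 0.860, while pairs of the same group without it reached 0.979 to 0.989, and it had the most detected miRNAs. The main comparisons of the members are therefore given with and without it. The arrays of each group filled a row of their own on the same slide, so position and treatment cannot be told apart. No spot was saturated. The number of arrays, 3 per group, limits the precision of every value, and since the labels number the samples without stating that each came from a separate mouse, p-values measure the spread between these samples, which may be technical.

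miR-192-5p was bright on every array and was lower in all 3 CCl4-treated livers than in any control liver. Its total signals were 1473, 1370 and 1422 in the corn oil group, and 1004, 1216 and 203 in the CCl4 group. The groups did not overlap, and CCl4 replicate 3 was far below the other CCl4 arrays. The mean of CCl4 replicates 1 and 2 was 78.1% of the corn oil mean and replicate 3 was 14.3% of it, while the coefficient of variation among corn oil arrays was 3.64%. miR-194-5p, the partner of miR-192 in the chromosome 19 cluster, followed the same order of arrays in the CCl4 group. Its total signals were 629, 547 and 618 in the corn oil group, and 407, 508 and 96.2 in the CCl4 group. The groups again did not overlap. CCl4 replicates 1 and 2 averaged 76.5% of the corn oil mean, replicate 3 was at 16.1%, and the coefficient of variation among corn oil arrays was 7.44%.

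Among miRNAs detected on all arrays, such a pattern was infrequent before normalization. All CCl4 arrays were below all corn oil arrays for 4 of the 166 miRNAs detected on all 6 arrays (2.41%), and these were miR-192-5p, miR-194-5p, miR-122-5p and miR-101b-3p. The last of them is on the list of hepatocyte miRNAs used below and was named after its values were seen. This count leaves out miRNAs that were not detected on CCl4 replicate 3. Over the 170 miRNAs detected on the other 5 arrays, CCl4 replicates 1 and 2 were below all corn oil arrays for 19 (11.2%). The exact two-sided permutation test on log2 total signals gave p = 0.1 for miR-192-5p and for miR-194-5p (n = 3 per group), the smallest that 3 arrays against 3 can give. On the CCl4 arrays most other miRNAs were brighter than in the controls, with the median of the 166 at 0.55, 0.35 and 2.05 above the corn oil mean on the log2 scale for replicates 1, 2 and 3. On the same scale miR-192-5p was at -0.50, -0.22 and -2.80, and miR-194-5p at -0.55, -0.23 and -2.63. After each array was scaled to its 75th percentile, miR-192-5p was at -1.30, -0.70 and -4.99 and miR-194-5p at -1.35, -0.71 and -4.82. All of these differences are below 0 under both scalings.

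**Figure D1:**
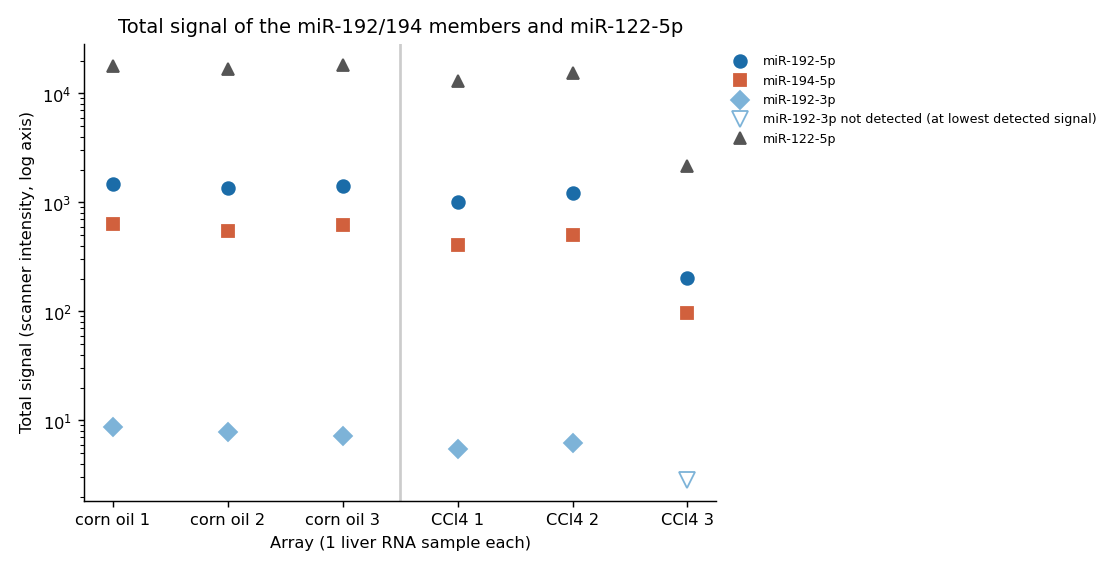
Total signal (scanner intensity, log axis) of miR-192-5p, miR-194-5p, miR-192-3p and miR-122-5p on each of the 6 arrays, with 1 point per array and an open triangle at the lowest detected signal where miR-192-3p was not detected. miR-192-5p was at 1370 to 1473 on the corn oil arrays and at 1004, 1216 and 203 on the CCl4 arrays, and the other miRNAs followed the same order of CCl4 arrays.

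**Figure D2:**
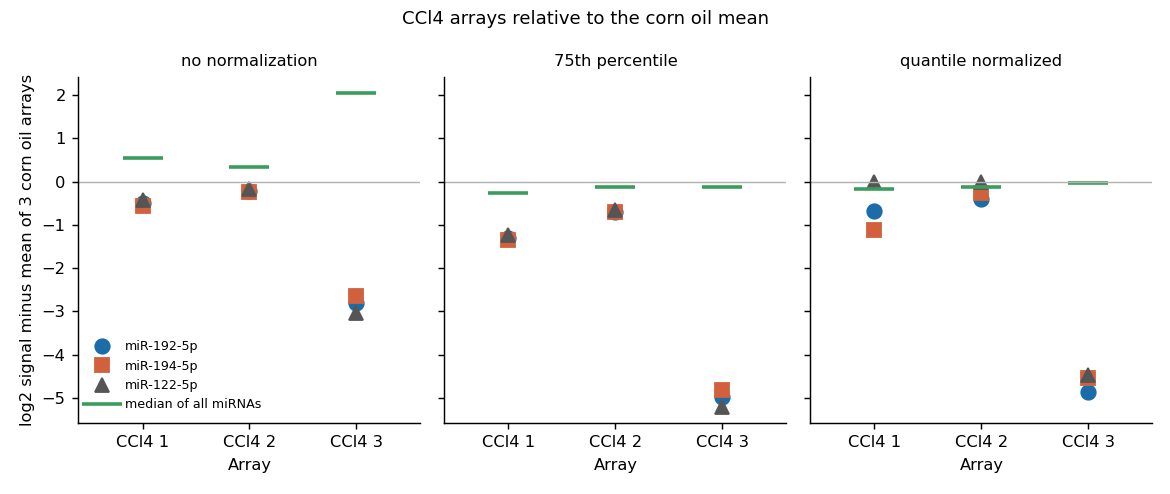
Log2 signal of miR-192-5p, miR-194-5p and miR-122-5p on each CCl4 array minus the mean of the 3 corn oil arrays, without normalization, after scaling to the 75th percentile and after quantile normalization. The green bars are the median of the 166 miRNAs detected on all arrays, and miR-192-5p and miR-194-5p lie below them on every CCl4 array in each panel.

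The probes of each miRNA gave like values. For miR-192-5p the probes A_54_P2460 and A_54_P2461 differed between the groups by -1.18 and -1.17 (log2, no normalization), and by -0.39 and -0.35 without CCl4 replicate 3. For miR-194-5p the probes A_54_P1151 and A_54_P1152 differed by -1.12 and -1.19, and by -0.38 and -0.43 without that array. Every spot of both miRNAs was well above background on all arrays.

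In the test across the array, neither miRNA passed. Log2 total signals of the 166 miRNAs were quantile normalized, which gives all arrays the same distribution, and fitted with limma, and a call needed both a Benjamini-Hochberg adjusted p below 0.05 and more than a 2-fold difference. miR-192-5p had a normalized log2 signal of 10.82 on every corn oil array, where it held the same rank, and of 10.15, 10.41 and 5.96 on the CCl4 arrays. The difference was -1.98 (standard error 1.24, limma adjusted p = 0.334). miR-194-5p was at 9.69, 9.52 and 9.52 on the corn oil arrays and at 8.47, 9.31 and 5.03 on the CCl4 arrays. Its difference was -1.97 (standard error 1.13, limma adjusted p = 0.284). The fit called 8 of 166 miRNAs lower (4.82%), and none of these was a member. All CCl4 arrays were below all corn oil arrays on this scale for 41 of 166 miRNAs (24.7%), members included.

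Most of the spread in this comparison came from CCl4 replicate 3. Without it the quantile-normalized difference of miR-192-5p was -0.48 (standard error 0.097) and passed at an adjusted p of 0.0234 by limma, although under 2-fold. That of miR-194-5p was -0.71 (standard error 0.29) with an adjusted p of 0.115 by limma. In this fit 56 of the 166 miRNAs (33.7%) were lower at an adjusted p under 0.05, so passing it was common. Scaled instead to the 75th percentile, both passed the adjusted p and the fold, at -1.002 (standard error 0.19, limma adjusted p = 0.00624) for miR-192-5p and -1.03 (standard error 0.20, limma adjusted p = 0.00658) for miR-194-5p, where 8 of 166 miRNAs (4.82%) were called lower. With neither replicate 3 nor normalization the differences were -0.36 and -0.39 at limma adjusted p = 0.0513 and 0.0605, while the median of all 166 miRNAs was 0.45. The fits without replicate 3 that used the 75th percentile or no normalization were chosen after the data had been seen.

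**Figure D3:**
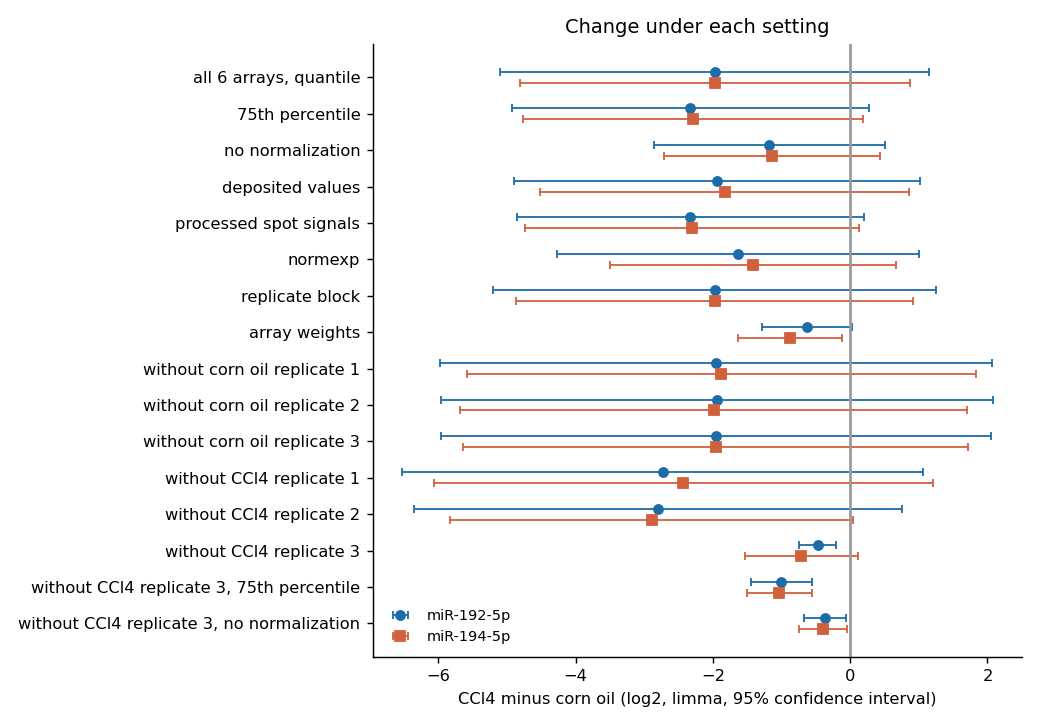
Difference between CCl4 and corn oil (log2, limma, with its 95% confidence interval) of miR-192-5p and miR-194-5p under each setting, with 3 arrays per group or 1 fewer where an array was left out. All points lie below 0, at -1.98 and -1.97 with all arrays and between -1.03 and -0.36 where CCl4 replicate 3 was left out, and the intervals are narrow only where that array was left out or given a low weight.

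miR-192-3p, the other arm of the miR-192 hairpin, was dim and, like miR-192-5p, lower in the CCl4 group where it was detected. Its total signals were 8.63, 7.84 and 7.13 in the corn oil group and 5.53 and 6.22 on CCl4 replicates 1 and 2, and it was not detected on CCl4 replicate 3. The detected values of the CCl4 group were below all of the corn oil group, as for 19 of the 170 miRNAs detected on these 5 arrays (11.2%). The gap between 6.22 and 7.13 is smaller than the error of 1.40 and 1.42 that the software gives these signals. The signal came from 1 of its probes, and the share of its spots well above background was 40 to 50% in control livers but 20% on CCl4 replicates 1 and 2 and 0% on replicate 3. Over the 5 arrays that detected it, a fit chosen after seeing the data gave a quantile-normalized difference of -0.90 (standard error 0.17, limma adjusted p = 0.0197), with 58 of 170 miRNAs (34.1%) lower at that threshold. Scaled to the 75th percentile it was -1.09 (limma adjusted p = 0.00324), a call, as for 12 of 170 miRNAs called lower (7.06%). The log2 ratio of the 5p arm to the 3p arm was 7.42, 7.45 and 7.64 in the corn oil group and 7.50 and 7.61 on CCl4 replicates 1 and 2, so both CCl4 values lay within the corn oil range. Only the steadiness of this ratio can be read, since probes differ in brightness. With the mean ratio of these 5 arrays, the miR-192-5p signal of replicate 3 corresponds to a miR-192-3p signal of 1.11, under the lowest detected signal on that array, 2.84.

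miR-215-5p, with the seed of miR-192-5p, was not detected in any liver. Its probe signals ran from -0.65 to 0.48 over the 6 arrays, and none of its spots was well above background. miR-215-3p was not detected either, with none of its spots well above background. The 3p arms of miR-194 were below detection as well, with at most 5% of the spots of any of their probes well above background on an array. One probe of miR-194-2-3p gave 0.44 to 2.94, without a detection flag, and the others of these arms gave 0.16 or less. The software estimates the error of these probe signals at 1.17 to 1.80. No change can be read for these 4 members, since neither group reached detection.

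Within an array, miR-192-5p and miR-194-5p kept nearly the same ratio to each other while the signals of both differed between arrays. The ratio of their total signals was 2.34, 2.50 and 2.30 in the corn oil group and 2.46, 2.39 and 2.11 in the CCl4 group. The groups overlapped, and the log2 difference was -0.04 with an exact permutation p = 0.8 (n = 3 per group, adjusted p = 1 over 3 ratios), and 0.03 without CCl4 replicate 3. The whole range of the log2 ratio over 6 arrays was 0.24, while miR-192-5p itself was at -2.80 on CCl4 replicate 3 relative to the corn oil mean.

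miR-122-5p behaved like the pair. Its total signals were 17855, 16613 and 18345 in the corn oil group and 13110, 15544 and 2158 in the CCl4 group, and its CCl4 replicates 1 and 2 averaged 81.4% and replicate 3 12.3% of the corn oil mean. The ratio of miR-192-5p to miR-122-5p was 0.0825, 0.0824 and 0.0775 in the corn oil group and 0.0766, 0.0783 and 0.0943 in the CCl4 group. The log2 difference was 0.03 (exact permutation p = 0.9, adjusted p = 1, n = 3 per group). The ratio of miR-194-5p to miR-122-5p was 0.0352, 0.0329 and 0.0337 against 0.0311, 0.0327 and 0.0446. Here CCl4 replicates 1 and 2 were below all corn oil values and replicate 3 was above them, so opposite shifts offset each other in the mean. The log2 difference was 0.07 (exact permutation p = 1, adjusted p = 1, n = 3 per group). Without CCl4 replicate 3 the differences against miR-122-5p were -0.06 and -0.09, so all 3 ratios changed sign. With 3 arrays per group these tests cannot go below 0.1, and a p above that does not show that the ratios are equal.

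**Figure D4:**
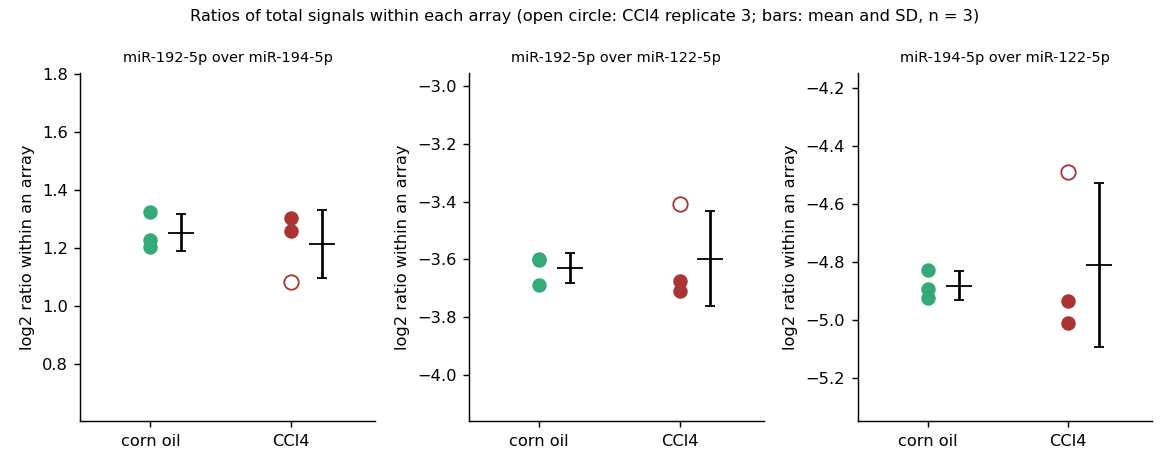
Log2 ratios of total signals within each array for miR-192-5p over miR-194-5p, miR-192-5p over miR-122-5p and miR-194-5p over miR-122-5p, by group, with 1 circle per array (open for CCl4 replicate 3) and bars of the mean and SD, n = 3. Each panel spans the same height on the log2 scale, and the CCl4 spread is set by replicate 3. The groups overlap for the ratios of miR-192-5p. For miR-194-5p over miR-122-5p, CCl4 replicates 1 and 2 lie below all corn oil arrays and replicate 3 lies above them.

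CCl4 replicate 3 was compared with CCl4 replicates 1 and 2 for the same miRNAs. Without normalization miR-192-5p was 5.43-fold and miR-194-5p 4.73-fold lower on replicate 3 than the mean of the others, and miR-122-5p was 6.62-fold lower. Of the 166 miRNAs, 26 were lower on that array by any amount, and the median miRNA was 1.36 higher on the log2 scale. Among these 166, only miR-122-5p was lower than miR-192-5p by this measure, and miR-122-5p and miR-192-5p alone were lower than miR-194-5p. miRNAs not detected on replicate 3 are left out of this ranking by the detection filter. Examples are miR-122-3p, at 32.2 and 35.5 on replicates 1 and 2, and miR-802-5p, at 17.0 and 22.4. The lowest detected signal on replicate 3 was 2.84, so the rank holds only for miRNAs that stayed detected.

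Lists of marker miRNAs were read beside the family. The hepatocyte list, of 6 miRNAs with 4 detected on all arrays, had no call and a median difference of -1.37, against -0.14 over all 166 (quantile normalized). Without CCl4 replicate 3 these medians were -0.77 and -0.12. Its summed signal was 17220 to 19016 in the corn oil group and 13740, 16209 and 2811 in the CCl4 group, most of it miR-122-5p. Before normalization its members did not all follow the family. miR-148a-3p was at 378 to 447 on the corn oil arrays and at 402, 426 and 292 on the CCl4 arrays, below that range on replicate 3 alone. miR-101a-3p was at 64.3 to 74.6 and at 69.0, 67.3 and 297, above its corn oil range on replicate 3. miR-101b-3p was at 121 to 143 and at 110, 114 and 63.8, below the corn oil range on all CCl4 arrays. Without CCl4 replicate 3 the list had 1 call, miR-101b-3p, which fell by 1.20 (limma adjusted p = 0.00183), where 7.23% of the 166 were called lower, and none when scaled to the 75th percentile. Over the 170 miRNAs detected on the other 5 arrays, miR-122-3p, the other arm of miR-122, was called as well, at -1.19 (limma adjusted p = 0.011), where 7.65% were called lower. miR-802-5p was at 4.53 to 12.98 in the corn oil group, at 17.0 and 22.4 on CCl4 replicates 1 and 2, and not detected on replicate 3.

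Summed signals of markers of other cells were read in the same livers, without normalization. On that scale the median of the 166 miRNAs was at 146%, 127% and 415% of the corn oil mean on CCl4 replicates 1, 2 and 3. The summed signal of the immune list, 6 miRNAs such as miR-142-3p and miR-223-3p of blood-derived cells, was 77.7 to 91.0 in the corn oil group and 475, 346 and 457 in the CCl4 group. Of this list, miR-150-5p was detected on all CCl4 arrays but no corn oil array, and miR-155-5p on CCl4 replicate 1 alone. The CCl4 arrays detected 227 to 334 miRNAs and the corn oil arrays 186 to 193. How many miRNAs were detected in the CCl4 group alone was not counted. Its 3 members detected on all arrays had no call and a median of 0.52, which was 0.97 without CCl4 replicate 3. The mesenchymal list, 6 miRNAs of fibroblasts and muscle-like cells, was at 90.3 to 131 and at 580, 263 and 1310, with 1 of 4 members called higher, against 7.23% of the 166 in that fit. This was miR-199a-5p, at 1.34 (limma adjusted p = 0.0323), and miR-145a-5p of this list was detected on CCl4 replicates 1 and 3 alone. Without CCl4 replicate 3 both the immune and the mesenchymal list had 1 call, higher in the CCl4 group, and 2 when scaled to the 75th percentile, where 9.64% and 10.8% of the 166 were called higher. The kidney and trunk list, of miRNAs of the Hox clusters and of miR-204-5p, was at 30.1 to 36.8 and at 63.4, 49.8 and 2112. Of it, miR-10b-5p, miR-196a-5p and miR-204-5p were detected on CCl4 replicate 3 alone, while miR-196b-5p was detected on none. That array detected 334 miRNAs, against 186 to 245 on the others, and how many were detected there alone was not counted. The red cell list was at 466 to 754 and at 730, 315 and 2135. Its 2 members on the array had no call and a median of -0.55 after quantile normalization. Without CCl4 replicate 3 at the 75th percentile, miR-451a was called at -1.04 (limma adjusted p = 0.0312), where 4.82% of the 166 were called lower. Before normalization miR-451a was at 452 to 728 on the corn oil arrays and at 699 and 302 on CCl4 replicates 1 and 2. The epithelial list was at 10.4 to 48.8 and at 139, 25.1 and 16.9 with no call, and miR-200c-3p and miR-141-3p were not detected on any array. None of the 3 pancreatic acinar miRNAs was detected. The part of these cell populations in the signals of miR-192 and miR-194 was not tested.

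miR-192, miR-194 and miR-215 are known p53-responsive miRNAs, so others of that kind were read beside them. Of 7 listed, 4 were detected on all arrays, and 1 was called, miR-34a-5p, which rose by 1.71 (limma adjusted p = 0.0262) and was at 29.3 to 47.9 on the corn oil arrays and at 219, 158 and 752 on the CCl4 arrays. Without CCl4 replicate 3 its difference was 1.49 (limma adjusted p = 0.0253), where 9.64% of the 166 were called higher. Before normalization miR-34a-5p was above its corn oil range on every CCl4 array, and how many of the 166 miRNAs were so was not counted. The part of p53 in the signals of the members was not tested. miR-107-3p, miR-15a-5p and miR-16-5p differed by -0.65, -0.57 and -0.37 after quantile normalization, without a call. Before normalization they were above their corn oil ranges on replicate 3, at 629, 760 and 1057 against 138 to 167, 294 to 325 and 271 to 311, so their direction there turns with the scaling. The summed signal of the list, not normalized, was 739 to 817 in the corn oil group and 1083, 921 and 3631 in the CCl4 group. Without normalization the median of the 166 miRNAs was at 146%, 127% and 415% of the corn oil mean on CCl4 replicates 1, 2 and 3. miR-34b-5p and miR-34c-5p, at total signals of 244 and 142, were detected on CCl4 replicate 3 alone. That array detected 334 miRNAs, against 186 to 245 on the others, and how many were detected there alone was not counted. The median of the 4 was -0.47, against -0.14 over all 166, and -0.43 against -0.12 without replicate 3.

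The miRNAs whose normalized signals were most like the members were then ranked over the 6 arrays by Pearson correlation, as a description. For miR-192-5p they were miR-6243 (0.995), miR-194-5p (0.992), miR-494-3p (0.991), miR-122-5p (0.990) and miR-31-5p (0.989). For miR-194-5p they were miR-148a-3p (0.997), miR-494-3p (0.996), miR-31-5p (0.995), miR-192-5p (0.992) and miR-92a-3p (0.991). The correlations include CCl4 replicate 3 and were not computed without it, since 5 arrays are too few. Before normalization the signal did not follow the family for all of these miRNAs. miR-6243 was at 893 to 1030 on the corn oil arrays and at 1226 on that array, and miR-92a-3p was at 122 to 141 and at 226. miR-494-3p was at 191.9 to 201.5 in the corn oil group and at 263, 283 and 267 in the CCl4 group. Its signal was above the corn oil range on every CCl4 array, and how many other miRNAs were so was not counted.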

How the data were processed

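RNA of 3 liver samples of CCl4-treated mice and 3 of corn oil-treated mice was labeled with Cy3 and hybridized to 1-color Agilent mouse miRNA arrays. The authors processed the scans with Feature Extraction 11.0.1.1, per the labels, and deposited total signals for each miRNA, intensities on a linear scale after background subtraction, with no normalization across arrays. Undetected miRNAs carry a total of 0.1. The authors also deposited intensities of 111 miRNAs after their quantile normalization.

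The sample titles gave the group and number of each array. Control spots were left out. The detection flag on all 6 arrays left 166 of 1247 miRNAs, whose log2 signals were quantile normalized and fitted with limma 3.58.1 (lmFit, eBayes) in R 4.3.3 on treatment alone. Ratios within an array were compared by exact permutation. Tables and plots used Python 3.11.15, pandas 2.3.3, scipy 1.17.1 and matplotlib 3.10.9. Alternatives covered the scaling, the detection filter, spot signals, normexp (offset 50, on the median spot signal because the files hold no mean), deposited values, array weights, the replicate block and each array left out.

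Named miRNAs are the members, miR-122-5p, the listed markers and the 5 most correlated with each member. The members, the lists and the tests were chosen with earlier results of these data known.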

Additional observations from a re-analysis of the deposited data

How the results depend on the processing

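The differences of miR-192-5p and miR-194-5p were below 0 in 20 of 20 alternatives each, from -2.80 to -0.36 (limma adjusted p from 0.00624 to 0.528) and from -2.89 to -0.39 (limma adjusted p from 0.00658 to 0.497). Both became calls only without CCl4 replicate 3 and scaled to the 75th percentile, at -1.002 and -1.03. miR-192-3p was at -2.05 (limma adjusted p = 0.00815) with detection in 1 group, a call where 7.44% of the miRNAs tested were called lower, and at -1.95 (limma adjusted p = 0.333) without a filter, both with CCl4 replicate 3 set to the lowest detected signal of that array. The ratios of miR-192-5p and of miR-194-5p to miR-122-5p moved to -0.49 each under quantile normalization, where miR-122-5p held the top rank on 5 arrays. Normalization moved the median of the 166 miRNAs from 0.99 without it to -0.14.

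The 20 calls across the array became 4 with normexp, 32 with detection in 1 group, 6 without a filter, 12 with the deposited values, 31 with array weights and 41 without CCl4 replicate 3 and without normalization. Leaving out 1 array gave 5 to 28 calls, with 7, 5 and 6 without corn oil replicates 1, 2 and 3 and 5, 21 and 28 without CCl4 replicates 1, 2 and 3. The replicate block gave 6 calls, with miR-192-5p at -1.98 (limma adjusted p = 0.323) and miR-194-5p at -1.97 (limma adjusted p = 0.286). The numbers were not taken to pair the samples. The deviations of same-numbered arrays correlated at -0.18, 0.11 and 0.03, and not every array correlated best with its own number. So few arrays, with CCl4 replicate 3 far from the rest, cannot exclude a pairing. The cause of the shifts in the number of calls was not tested.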
